A study of Mus musculus with 8 samples.

Results

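The 35 genes described here are a list of extracellular matrix genes known from fibroblasts: collagens, fibronectin and other matrix glycoproteins, small proteoglycans, matricellular proteins, the enzymes and inhibitors that build or trim matrix, and 3 surface molecules. They were picked by name, as every spot on the array whose gene name is on the list, and all 35 were found among 37074 gene names (72 probes, 108 spots per array). RNA was measured in peritoneal macrophages with 8 one-colour Agilent arrays, 4 of wild-type mice (wt) and 4 of Card9-/- mice, which lack an adaptor that passes signals from receptors for fungal cell walls on to NF-kB. All mice of both genotypes had been injected in the abdomen with 1 ml of 3% thioglycolate, an irritant that draws macrophages into the peritoneal cavity, and cells were collected on day 4, plated, and kept as the fraction adhering after 3 h. Zymosan, a yeast cell wall preparation, was given at 500 mg/kg for 4 h to every group, so no sample analysed here is untreated. Strain, sex and age of the mice, the kind of Card9 allele and the timing of zymosan relative to thioglycolate are not given in the sources used here. Cells of 4 or 5 mice per group were put together before plating, per the labels, and nothing says that the arrays of a genotype come from separate animals. The p-values below measure the spread between these samples alone, which may be technical.

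A fibrillar collagen fibre begins as procollagen chains that are trimmed by proteases, with help from Pcolce, and then crosslinked by lysyl oxidases such as Lox and Loxl1. Fibronectin, fibulins, fibrillin and the small leucine-rich proteoglycans organise that fibre network, matricellular proteins such as Sparc and thrombospondins tune how cells attach to it, and metalloproteases (Mmp genes) cut it under the control of the Timp inhibitors. Fibroblasts are the main source of fibrillar collagen, whereas peritoneal macrophages are known to make fibronectin themselves.

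Each gene is read through 60-base probes, and probes of one gene at different places in its transcript show whether a value belongs to the gene or to a single probe. Probe sequences of Fn1, Timp2, Sparc, Bgn and Mmp14 are shown because the results below turn on these genes and because these probes lie in the protein-coding part of the transcript. They are given 5′ to 3′ in lower case, with no base marked:
Fn1, probe from base 7252 of the transcript: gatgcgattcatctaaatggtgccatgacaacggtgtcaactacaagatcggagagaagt
Fn1, probe from base 769 of the transcript: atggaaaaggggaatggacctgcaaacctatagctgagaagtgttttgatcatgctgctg
Timp2, probe from base 652 of the transcript: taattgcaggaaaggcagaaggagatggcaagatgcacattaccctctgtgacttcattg
Sparc, probe from base 980 of the transcript: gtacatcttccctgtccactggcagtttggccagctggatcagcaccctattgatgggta
Bgn, probe from base 927 of the transcript: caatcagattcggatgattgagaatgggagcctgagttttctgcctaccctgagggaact
Mmp14, probe from base 1596 of the transcript: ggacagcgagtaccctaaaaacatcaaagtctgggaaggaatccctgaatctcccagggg
On mm9, the build of the files, the Fn1 probes map to the minus strand at chr1:71637422-71639659 and chr1:71694694-71695800, each across an exon junction. The Timp2 probe maps across a junction at chr11:118171964-118178741 and the Sparc probe across one at chr11:55209449-55212106, both on the minus strand. The Bgn probe lies within an exon at chrX:70738554-70738613 and the Mmp14 probe at chr14:55058775-55058834, both on the plus strand.

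Promoter sequence was at hand for 22 of the 35 genes in RefSeq's table (GRCm38.p6). The 250 bases before the RefSeq start of Col1a2 and of Timp2 are shown because these genes stand for the 2 array profiles described below. Capitals mark matches to 3 short motifs, each searched on both strands. The CCAAT box was searched as CCAAT and, for the other strand, as its reverse complement ATTGG. The letters of the GC box were GGGCGG and, on the other strand, those of CCGCCC. For the TATA box the search used TATAA and then its reverse complement, TTATA. The matches shown do not overlap:
Col1a2, plus strand, chr6:4505368-4505617: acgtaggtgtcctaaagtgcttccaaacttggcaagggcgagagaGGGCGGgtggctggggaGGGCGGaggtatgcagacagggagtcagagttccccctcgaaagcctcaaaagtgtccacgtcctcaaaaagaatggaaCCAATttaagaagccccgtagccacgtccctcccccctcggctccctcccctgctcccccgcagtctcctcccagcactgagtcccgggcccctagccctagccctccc
Timp2, minus strand, chr11:118355412-118355661: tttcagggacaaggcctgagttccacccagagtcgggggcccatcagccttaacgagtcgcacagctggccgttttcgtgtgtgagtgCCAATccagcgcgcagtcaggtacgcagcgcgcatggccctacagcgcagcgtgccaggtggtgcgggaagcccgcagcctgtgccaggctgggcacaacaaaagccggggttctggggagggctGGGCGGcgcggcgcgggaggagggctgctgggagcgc
Col1a2 carries 1 CCAAT box and 2 GC boxes in this window, and Timp2 carries 1 of each. Over the 22 genes, a GC box was found in 13 (59.1%), against 35.4% of 27025 genes in the table. A CCAAT box was found in 8 (36.4%, against 37.5%) and a TATA box in 4 (18.2%, against 25.8%). A match describes letters in the window and is not a bound site.

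Every level below is a log2 processed signal scaled by subtracting, for each array, the 75th percentile over its non-control spots, so that a gene at 0 sits on that percentile. Values are always given for replicates 1 to 4 in that order. The share of the 59305 non-control spots well above background ran from 47.8% to 56.5% by array, 0 spots were saturated, and the number of arrays limits the precision. The deleted gene gave an uneven picture. The brighter Card9 probe stood at -6.21, -3.66, 1.48 and -0.67 on the wt arrays and at -5.93, -5.48, -4.77 and -5.43 on the Card9-/- arrays. It stayed near background in all 4 Card9-/- libraries and in the library labelled wt replicate 1, which for this reason is called by its label throughout. The deleted stretch of Card9 is not stated, so a probe outside it would check nothing. XIST was well above background on all 4 wt arrays and 0 Card9-/- arrays, and the Y-linked genes Eif2s3y and Ddx3y on 0 wt and all 4 Card9-/- arrays, so genotype cannot be told apart from the sex these genes mark. All 4 wt arrays and Card9-/- replicate 4 lay on slide 1, Card9-/- replicates 1 and 3 on slide 2 and Card9-/- replicate 2 on slide 3. The library labelled wt replicate 1 and wt replicate 2 were the closest pair of arrays (correlation 0.985 over the genes tested), and whether they hold the same RNA is not settled by the files.

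Of the 35 matrix genes, 15 were well above background on all 8 arrays, 13 on some arrays and 7 on none. A gene entered the test when 3 or more of the 4 arrays of one genotype had it well above background. By that rule 21 of the 35 were tested, 4 of them through a single genotype: Col5a1, Fbln1 and Mfap5 through wt, and Col6a2 through Card9-/-. The number of the 35 genes well above background on an array was 18, 20, 24 and 26 in wt and 16, 24, 21 and 19 in Card9-/-. Of the 6 genes that define fibroblasts here, Col1a1, Col1a2, Col3a1 and Dcn were well above background on all 8 arrays, Lum on 3 and Pdgfra on 0. Because the PDGF receptors, Postn and Mmp2 were not well above background on any array, the genes are called matrix genes here and not a fibroblast signature. Whether the RNA came from fibroblasts among the adherent cells or from other cells was not tested. In bulk RNA, fewer cells of a type and less RNA per cell cannot be told apart.

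**Figure D1:**
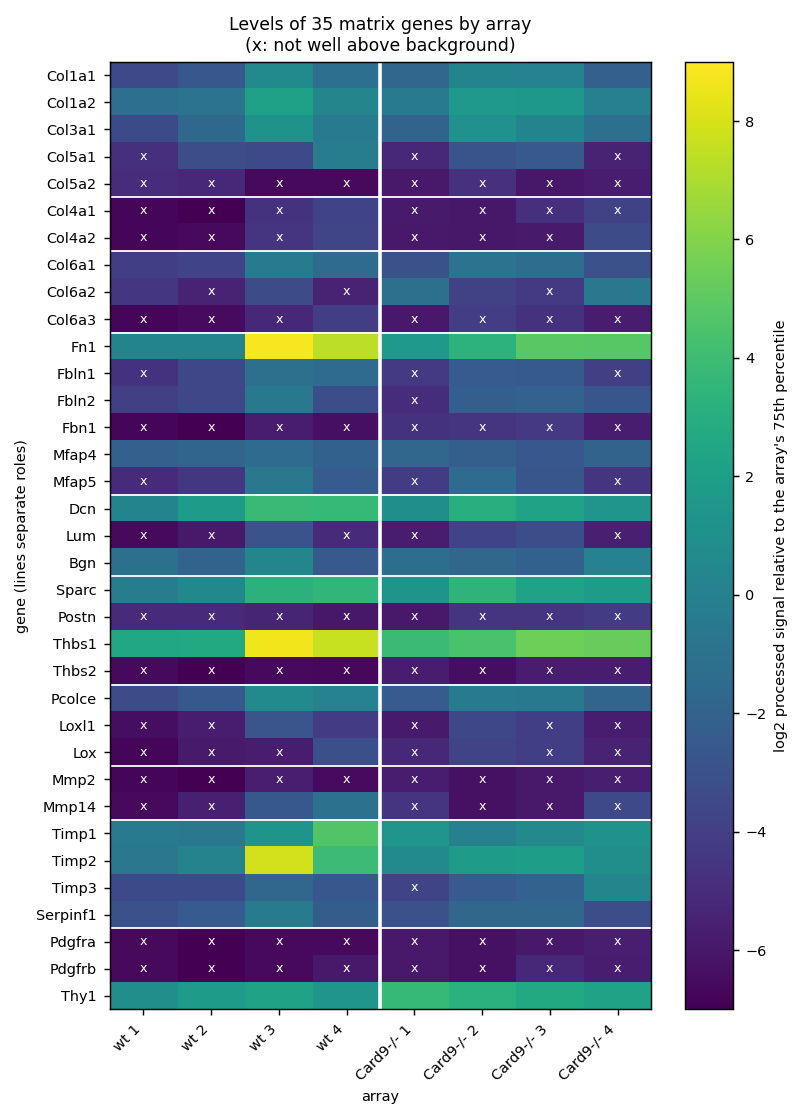
Level of each of the 35 matrix genes (rows, grouped by role) on each array (columns), as log2 processed signal relative to the array's 75th percentile, with x where the probe was not well above background. Fn1, Thbs1 and Timp2 are brightest in wt replicates 3 and 4, and 7 genes carry an x on all 8 arrays.

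No matrix gene passed the test between the genotypes. After limma with Benjamini-Hochberg adjustment over 18603 genes, 0 of the 21 tested passed 0.05, where 0.0269% of all genes did, and their adjusted p ran from 0.554 to 0.999. At an unadjusted p under 0.05 there were 2, Thy1 and Col6a2, both higher in Card9-/-, where 7.22% of all genes lay under it in either direction and 2.63% did so with higher values in Card9-/-. Col6a2 had entered the test through Card9-/- alone, the genotype in which it was higher, so that its direction was favoured by the filter. Of the 21, 11 had a lower mean in Card9-/- and 10 a higher one, where 56.3% of all genes were lower. Among the 11 were Col5a1, Fbln1 and Mfap5, which had entered the test through wt alone, so that the filter favoured their direction too. The count of matrix genes lower was 8 with normexp background correction, where 8894 of 18603 genes were lower. It was 13 with median scaling, where 12627 of 18603 were. The median difference of the 21 was -0.10, beside -0.09 over all genes tested. In 17 of the 21 the difference was smaller than the SD between arrays in each genotype. Only for Thy1, among the 21, did the genotypes not overlap, where 5.22% of all genes did not overlap and 1.53% did not with Card9-/- higher.

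Arrays of one genotype, above all wt, lay far apart in these genes. The median SD between the 4 wt arrays was 1.77 log2 units over the 21 matrix genes and 0.676 over all genes, and between the 4 Card9-/- arrays it was 0.972 and 0.594. In 8 of the 21 the wt arrays spanned more than 4 log2 units, as did 7.67% of all genes. Wt replicates 3 and 4 both lay above the other wt arrays in 16 of the 21, against 32.6% of all genes. The highest of all 8 arrays was wt replicate 3 or 4 in 18 of the 21 (38.1% of all genes), and the lowest was the library labelled wt replicate 1 or wt replicate 2 in 14 (17.4% of all genes). Within Card9-/-, replicate 2 or 3 was the highest in 15 of the 21 (44.2% of all genes). The median level of the 21 genes was -3.02, -1.93, 0.62 and -0.49 on the wt arrays and -1.70, -0.44, -0.56 and -0.62 on the Card9-/- arrays. These counts describe how the genes share their pattern over 8 arrays and were given no test, since the same arrays carry all of them.

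**Figure D2:**
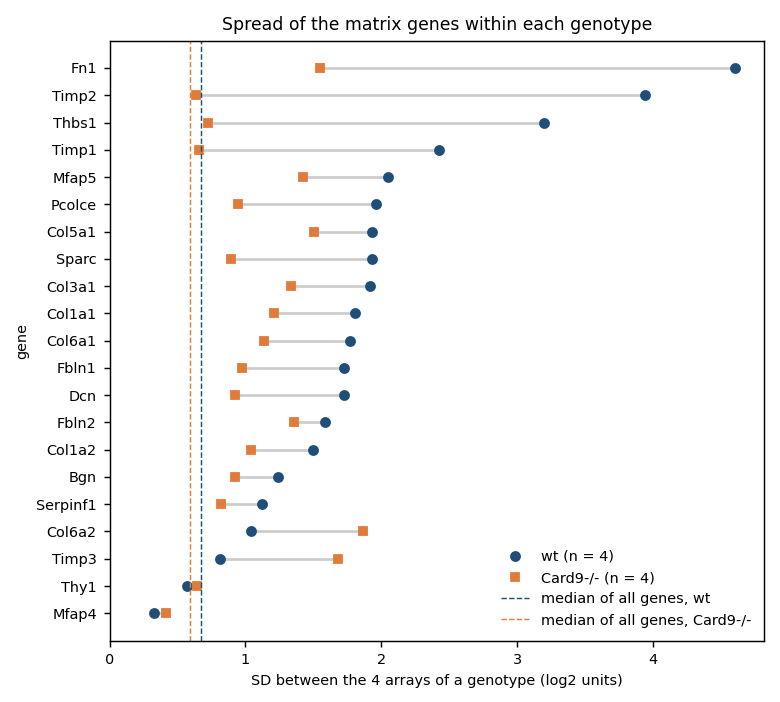
SD between the 4 arrays of a genotype in log2 units (horizontal axis) for each of the 21 matrix genes tested, in wt (circles) and Card9-/- (squares), with the medians of all 18603 genes as dashed lines. Fn1, Timp2 and Thbs1 have the widest spread in wt, and Mfap4 and Thy1 lie below the wt median of all genes.

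The fibrillar collagens form the load-bearing fibres of connective tissue, and Col1a1, Col1a2 and Col3a1 encode the chains of types I and III. Col1a1 stood at -3.47, -2.63, 0.64 and -1.16 in wt and at -1.70, 0.24, 0.11 and -2.10 in Card9-/-. Col1a2 stood at -1.15, -0.90, 2.13 and 0.33 in wt and at -0.45, 1.56, 1.5 and -0.03 in Card9-/-. Col3a1 stood at -3.40, -1.68, 1.14 and -0.49 in wt and at -1.89, 1.12, 0.19 and -1.11 in Card9-/-. All 3 collagens had the same profile, with wt replicate 3 the highest of the 8 arrays, Card9-/- replicates 2 and 3 above Card9-/- replicates 1 and 4, and the library labelled wt replicate 1 the lowest, so the genotypes overlapped. Within wt the highest array exceeded the lowest 17.3-fold for Col1a1, 9.72-fold for Col1a2 and 23.3-fold for Col3a1. The differences between genotypes were 0.79 (SE 0.92) for Col1a1, 0.54 (SE 0.79) for Col1a2 and 0.69 (SE 0.98) for Col3a1, with limma adjusted p of 0.895, 0.923 and 0.923. Against the wt arrays of its own slide, Card9-/- replicate 4 alone gave -0.45 for Col1a1 and -0.14 for Col1a2, and was level with wt for Col3a1. Probes of Col1a1 disagreed in sign, from -0.01 to 1.45 over the 3 that were tested.

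Type V collagen is a minor collagen that sits inside type I fibres and limits their width. Col5a1 stood at -4.80, -3.15, -3.44 and -0.20 in wt, where the library labelled wt replicate 1 was not well above background, and at -5.17, -2.82, -2.55 and -5.40 in Card9-/-, where replicates 1 and 4 were not. Unlike the collagens above, Col5a1 was highest in wt replicate 4, and its difference of -1.09 (SE 1.02, limma adjusted p = 0.867) lay within the spread. Col5a2 was not well above background on any array. The basement membrane collagens Col4a1 and Col4a2, which form the sheet-like network under epithelia and vessels, were close to background throughout. Col4a1 was well above it in wt replicate 4 alone, at -3.75, and Col4a2 in wt replicate 4 at -3.66 and Card9-/- replicate 4 at -3.31. Neither was tested.

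Type VI collagen makes beaded filaments near the cell surface, and its chains did not share a profile. Col6a1 stood at -4.04, -3.75, -0.45 and -1.39 in wt and at -3.04, -0.93, -1.26 and -3.06 in Card9-/-, the same order of arrays as Col1a1. Col6a2 stood at -4.47, -5.39, -3.25 and -5.49 in wt and at -1.08, -3.82, -4.28 and -0.62 in Card9-/-. Its 2 high arrays were Card9-/- replicates 1 and 4, the ones in which the type I and III chains were lowest of their genotype, while Card9-/- replicates 2 and 3 lay within the wt range. Of the 3 probes of Col6a2 only 1 passed the filter, and the others were well above background on no array. The difference of Col6a2 was 2.20 (SE 0.90, unadjusted p = 0.0362, limma adjusted p = 0.639) or 4.60-fold, and wt replicates 2 and 4 and Card9-/- replicate 3 were not well above background. It was 1.21 with normexp correction, 1.59 without Card9-/- replicate 4 and 4.03 against the wt arrays of that replicate's slide. Col6a1 differed by 0.34 (SE 0.89, limma adjusted p = 0.966) and by -0.65 within slide 1. Col6a3 was well above background in wt replicate 4 alone, at -4.03, and was not tested.

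Fibronectin, encoded by Fn1, is the adhesive glycoprotein that cells bind through integrins and on which collagen fibres are laid. Its level was 0.24, 0.24, 8.87 and 7.43 in wt and 1.62, 3.33, 4.89 and 4.84 in Card9-/-. All 4 Card9-/- arrays lay inside the gap between the low pair and the high pair of wt arrays, and the wt arrays spanned 396-fold. The mean of the wt arrays was 4.19 ± 4.60 (SD, n = 4) and that of the Card9-/- arrays 3.67 ± 1.55 (SD, n = 4), a difference of -0.53 (SE 1.96, limma adjusted p = 0.979). Its sign changed within slide 1 (0.64), without wt replicate 3 (1.03) and without wt replicate 4 (0.55). The SD of Fn1 in wt was larger than that of 99.9% of genes tested. The high level in wt replicates 3 and 4 was seen with other probes too. The coding probe from base 7252 stood at -3.08, -2.35, 5.31 and 3.22 in wt and at -3.73, -0.54, 1.54 and 1.69 in Card9-/-. The probe from base 769 stood at -4.59, -3.30, 4.56 and 1.87 in wt and at -4.08, -1.90, 0.86 and 0.85 in Card9-/-. Both coding Fn1 probes put wt replicates 3 and 4 on top and the library labelled wt replicate 1 and Card9-/- replicate 1 at the bottom, so that Card9-/- replicate 1 did not lie in the gap between the wt pairs. It was not well above background with either of these probes.

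The fibulins, fibrillin and microfibril-associated proteins decorate elastic and collagen fibres. Fbln1 stood at -4.66, -3.61, -1.06 and -1.42 in wt and at -4.26, -2.43, -2.44 and -3.94 in Card9-/-. Fbln2 stood at -3.97, -3.62, -0.50 and -3.22 in wt and at -4.91, -2.14, -1.96 and -2.71 in Card9-/-. Mfap5 stood at -5.10, -4.41, -0.60 and -2.32 in wt and at -4.16, -1.42, -2.74 and -4.53 in Card9-/-. The 3 genes were all highest in wt replicate 3 and their genotypes overlapped. The microfibril protein gene Mfap4 behaved otherwise, at -2.08, -1.80, -1.38 and -2.06 in wt and -1.70, -2.15, -2.66 and -1.93 in Card9-/-. Its wt arrays spanned only 1.63-fold, the narrowest wt range of the 21 genes tested, and its SD in wt (0.33) was larger than that of 15.8% of all genes. The differences of Fbln1, Fbln2, Mfap4 and Mfap5 ran from -0.58 to -0.10, with limma adjusted p of 0.906 to 0.993, and those of Fbln2, Mfap4 and Mfap5 were positive with normexp correction. Fbn1, the main fibrillin, was not well above background on any array.

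Decorin, lumican and biglycan are small leucine-rich proteoglycans that bind collagen fibres. Dcn stood at 0.19, 1.83, 3.79 and 3.74 in wt and at 0.95, 3.01, 2.21 and 1.32 in Card9-/-. It shared the low library labelled wt replicate 1 and the high wt replicate 3 with Col1a1, Col1a2 and Col3a1, though its wt replicate 4 was nearly as high. In Card9-/- its highest array was again replicate 2. Its difference was -0.51 (SE 0.83, limma adjusted p = 0.933) and depended on single wt arrays, at -0.045 without wt replicate 3, -0.061 without wt replicate 4 and -1.24 without the library labelled wt replicate 1. Bgn, read through the probe shown above, stood at -1.12, -1.93, 0.33 and -2.52 in wt and at -1.21, -1.71, -2.01 and 0.08 in Card9-/-. Its lowest array was wt replicate 4, unlike any other of the proteoglycan or fibrillar collagen genes tested, and its 2 highest arrays came from different genotypes. The difference of Bgn was 0.10 (SE 0.68, limma adjusted p = 0.992). Lum was well above background in wt replicate 3 (-2.89), Card9-/- replicate 2 (-3.76) and Card9-/- replicate 3 (-3.13), the 3 arrays with the most type I collagen RNA, and was not tested.

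Matricellular proteins are secreted into matrix without bearing load. Sparc, a collagen-binding protein, stood at -0.27, 0.47, 3.25 and 3.55 in wt and at 1.30, 3.41, 2.24 and 1.85 in Card9-/-. The Sparc probe shown above stood at -3.52, -2.53, -0.15 and 0.48 in wt and at -2.0, 0.19, -0.33 and -0.84 in Card9-/-. Both Sparc probes gave the same 2 low wt arrays, the same 2 high wt arrays and the same highest Card9-/- array, replicate 2. The difference of Sparc was 0.45 (SE 0.90, limma adjusted p = 0.951), and -0.10 when the library labelled wt replicate 1 and wt replicate 2 were averaged. Thbs1, which encodes thrombospondin-1, an activator of latent TGF-beta, stood at 2.61, 2.73, 8.66 and 7.64 in wt and at 3.90, 4.40, 5.45 and 5.25 in Card9-/-. With this probe every Card9-/- array lay in the gap between the low and the high wt arrays, which spanned 66.5-fold. A Thbs1 probe from base 3894 stood at 2.14, 1.64, 8.17 and 6.5 in wt and at 1.74, 2.42, 3.77 and 4.14 in Card9-/-, with the same 2 high arrays but with Card9-/- replicate 1 below the library labelled wt replicate 1, and a difference of -1.60. With the brighter probe the difference was -0.66 (SE 1.34, limma adjusted p = 0.952), 0.43 without wt replicate 3 and 0.09 without wt replicate 4. Postn and Thbs2 were not well above background on any array.

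Pcolce, the helper of the procollagen protease, stood at -3.35, -2.58, 0.62 and 0.12 in wt and at -2.37, -0.44, -0.56 and -1.80 in Card9-/-. Its means were nearly equal, with a difference of 0.01 (SE 0.92, limma adjusted p = 0.999) and a 95% confidence interval from -2.06 to 2.07, and its arrays were ordered as for Col1a2 apart from wt replicate 4. The crosslinking enzyme genes were seen on few arrays. Loxl1 was well above background in wt replicates 3 (-2.79) and 4 (-4.24) and Card9-/- replicate 2 (-3.55), and Lox in wt replicate 4 (-3.08) and Card9-/- replicate 2 (-3.72). Of the proteases, Mmp2, the gelatinase of fibroblasts, was not well above background on any array. Mmp14, a membrane-bound collagenase that activates it, stood at -6.62, -5.58, -2.57 and -0.97 in wt and at -4.54, -6.25, -5.92 and -3.46 in Card9-/-. Wt replicates 3 and 4 were the only arrays with Mmp14 well above background, and as the bound on the fold came out under 1, none is given.

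Timp1, Timp2 and Timp3 encode inhibitors of the metalloproteases, and each had a profile of its own. Timp2 stood at -0.66, 0.13, 7.90 and 4.00 in wt and at 0.65, 1.77, 1.93 and 0.88 in Card9-/-. The Card9-/- arrays were close together, within 2.42-fold, while the wt arrays spanned 377-fold with wt replicates 3 and 4 far above the rest. The coding Timp2 probe stood at -1.65, -1.06, 5.67 and 3.32 in wt and at -0.79, 0.26, 0.75 and 0.08 in Card9-/-, the same split. The difference of Timp2 was -1.53 (SE 1.62, limma adjusted p = 0.889), and 0.15 without wt replicate 3. Timp1 stood at -0.34, -0.58, 1.28 and 4.67 in wt and at 1.42, -0.0038, 0.54 and 1.25 in Card9-/-, highest in wt replicate 4 and not in replicate 3. Its difference was -0.46 (SE 1.04, limma adjusted p = 0.958), and 0.68 without wt replicate 4. Timp3 stood at -3.42, -3.42, -1.71 and -2.63 in wt and at -3.73, -2.38, -1.97 and 0.32 in Card9-/-. Card9-/- replicate 4 was the highest Timp3 array, and Card9-/- replicate 1 was not well above background. The difference of 0.86 (SE 0.80, limma adjusted p = 0.867) was 0.10 without Card9-/- replicate 4 and 3.12 when that replicate was set against the wt arrays of its slide. Serpinf1, which encodes a secreted serpin that blocks vessel growth, stood at -3.02, -2.43, -0.43 and -2.28 in wt and at -3.06, -1.72, -1.69 and -3.18 in Card9-/-. Its difference was -0.37 (SE 0.63, limma adjusted p = 0.934), and its probes disagreed in sign, from -0.37 to 0.87.

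**Figure D3:**
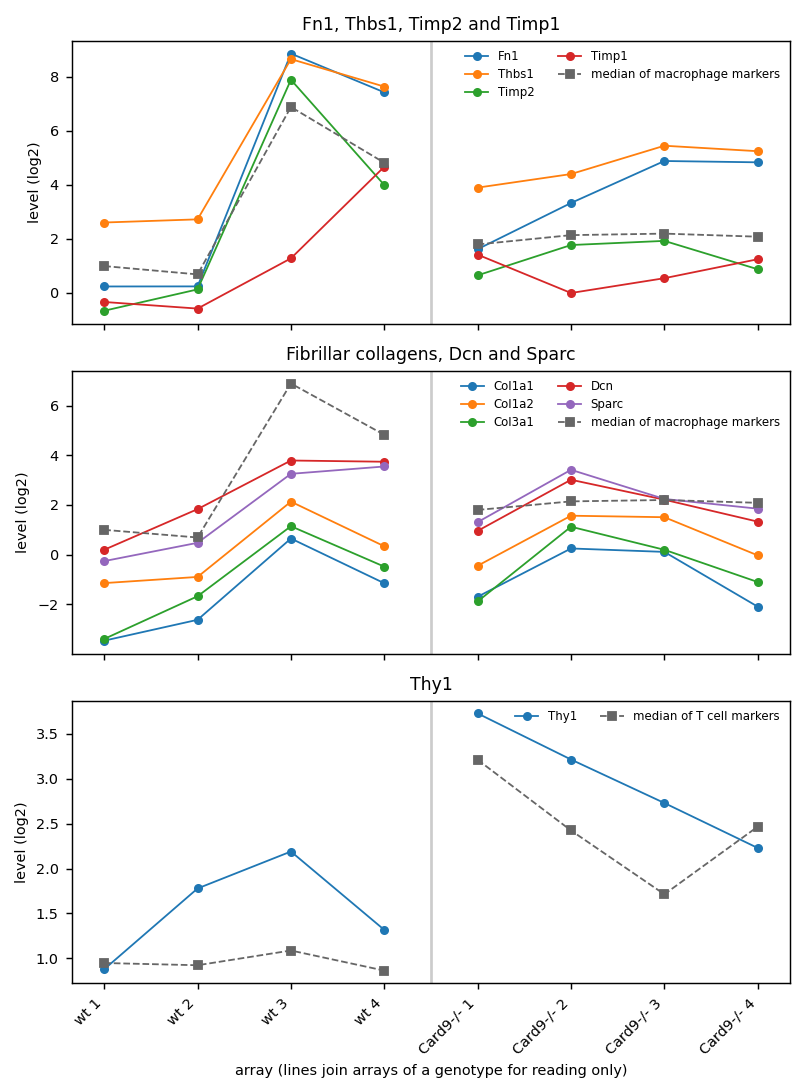
Levels (log2, relative to the array's 75th percentile) on the 8 arrays of Fn1, Thbs1, Timp2 and Timp1 (top), of fibrillar collagens, Dcn and Sparc (middle) and of Thy1 (bottom), with the median of the macrophage or T cell markers dashed. Fn1 runs from 0.24 to 8.87 in wt, the collagens are high in wt replicate 3 and Card9-/- replicates 2 and 3, and Thy1 is 2.23 or more in every Card9-/- array and 2.19 or less in every wt array.

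Thy1, a surface glycoprotein found on fibroblasts and in mice also on T cells, was the gene of the list whose genotypes did not overlap. Read through its only probe, it stood at 0.88, 1.78, 2.19 and 1.32 in wt and at 3.72, 3.21, 2.73 and 2.23 in Card9-/-. Every Card9-/- array lay above every wt array, the nearest being Card9-/- replicate 4 and wt replicate 3, which share a slide. The mean of the wt arrays was 1.54 ± 0.57 (SD, n = 4) and that of the Card9-/- arrays 2.97 ± 0.64 (SD, n = 4), a 2.70-fold difference of 1.43 log2 units (SE 0.45) with a 95% confidence interval from 0.42 to 2.44. It did not pass after adjustment over all genes (unadjusted p = 0.0105, limma adjusted p = 0.554). The difference was positive in all 18 alternatives, from 0.69 within slide 1 to 1.68 without Card9-/- replicate 4, and passed in 0. The 2 PDGF receptors, Pdgfra and Pdgfrb, which define fibroblasts and pericytes, were not well above background on any array.

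Markers of T cells lay beside Thy1. All 10 T cell markers listed (Cd8a, Cd8b1 and Zap70 among them) were well above background often enough to be tested, and all 10 had higher means in Card9-/-, where 56.3% of all genes were lower. None passed after adjustment, and 8 had an unadjusted p under 0.05 with higher values, against 2.63% of all genes. Their median level was 0.95, 0.92, 1.09 and 0.87 in wt against 3.21, 2.42, 1.71 and 2.47 in Card9-/-. Their summed signal relative to the 75th percentile was 56.0 to 120 in wt and 87.7 to 173 in Card9-/-. That sum rests largely on Cd2, the brightest of them on every array. Cd2 stood at 5.18, 5.61, 6.66 and 6.64 in wt and at 6.33, 6.36, 6.40 and 5.37 in Card9-/-, a difference of 0.09. In Card9-/- the highest array of both Thy1 and the T cell median was replicate 1. The lowest was replicate 4 for Thy1 and replicate 3 for the T cell median. The part of the T cell markers in the difference of Thy1 was not tested.

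Fn1, Thbs1 and Timp2 lay beside the macrophage markers. Of 13 such markers 12 were tested, with Mertk left out. In 12 of 12 wt replicates 3 and 4 both lay above the other wt arrays, where 32.6% of all genes did so. The order was not particular to macrophage markers. It held in 4 of 4 fibroblast, 7 of 8 fat cell and 5 of 6 mesothelial markers tested. For smooth muscle and pericyte markers it was 2 of 5, for T cell markers 3 of 10 and for neutrophil markers 2 of 10. Endothelial and platelet markers each had 1 of 4. The median level of the macrophage markers was 0.99, 0.69, 6.89 and 4.82 in wt and 1.80, 2.14, 2.20 and 2.08 in Card9-/-. Their summed signal ranged from 56.9 to 2113 in wt and from 116 to 319 in Card9-/-. Of the 12, 10 had lower means in Card9-/-, and 0 passed with or without adjustment. Cd68, a lysosomal protein of macrophages, stood at 1.99, 2.16, 6.69 and 5.86 in wt and at 3.35, 2.45, 3.33 and 2.23 in Card9-/-. Card9 itself, by its brighter probe, was highest in the same 2 wt arrays. Its other probe stood at -4.80, -4.57, -1.42 and -4.44 in wt and at -5.89, -6.26, -5.90 and -3.40 in Card9-/-. That probe was well above background in wt replicates 2 and 3 alone. The part of the macrophage markers in the levels of Fn1, Thbs1 and Timp2 was not tested.

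Col1a1, Col1a2, Col3a1, Dcn and Sparc also had wt replicates 3 and 4 above the other wt arrays, as the macrophage markers did. Across the Card9-/- arrays the median of those markers stood between 1.80 and 2.20, and single ones ranged more widely (Lyz1 from -0.24 to 4.86). On these arrays Col3a1 ranged from -1.89 to 1.12. Fn1 ranged at least as widely, from 1.62 to 4.89, and Thbs1 (3.90 to 5.45) and Timp2 (0.65 to 1.93) less. The part of the macrophage markers in these genes was not tested. Mesothelial markers, of which 6 of 11 were tested, had a summed signal of 1.13 to 6.72 in wt and 1.45 to 3.60 in Card9-/-. Upk3b, Upk1b, Lrrn4, Krt7, Muc16 and Bnc1 did not meet the rule for testing. Smooth muscle and pericyte markers (5 of 9 tested) summed to 54.9 to 92.0 in wt and 40.9 to 61.8 in Card9-/-, endothelial markers (4 of 10 tested) to 0.652 to 1.26 and 0.825 to 2.05, and fat cell markers (8 of 12 tested) to 5.23 to 125 and 5.97 to 13.5. In wt replicates 3 and 4 the brightest fat cell marker was Fabp4, at 6.51 and 4.96, with Acaca next at 4.55 and 2.48. The fat cell sum there thus rests largely on Fabp4. Adipoq, Plin1, Cidec and Cidea did not meet the rule for testing. For platelets, another source of thrombospondin-1, 4 of 8 markers were tested, and Itga2b, Gp1ba, Gp9 and Gp6 were not. Their summed signal of 2.27 to 377 in wt and 2.62 to 32.5 in Card9-/- was highest in wt replicate 3, where Pf4 stood at 8.56 while Gp1bb stood at -3.68, Treml1 at -3.61 and Ppbp at -2.54. Pf4 differed by -1.74 between the genotypes and the other 3 by 1.19 to 1.57, with a list median of 1.26. Neutrophil markers (10 of 10 tested) summed to 154 to 665 in wt and 97.5 to 871 in Card9-/-. None of these lists had a gene past the threshold after adjustment (Ucp1, of the fat cell list, had an unadjusted p under 0.05), and their part in the matrix genes was not tested.

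The 7 matrix genes well above background on no array were Col5a2, Fbn1, Pdgfra, Pdgfrb, Mmp2, Postn and Thbs2. All 7 had a higher mean in Card9-/-, by 0.24 to 1.62, and with no array well above background these differences say nothing of the genes. The level that the scanner software assigns to dim spots, after scaling, was -6.72 on average in wt and -5.98 in Card9-/-, so that an undetected probe differs by 0.74 from that alone. Of the genes tested, Col5a1, Col6a2, Fbln1, Fbln2, Mfap5 and Timp3 had at least 1 array not well above background, at levels above the one assigned to dim spots.

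**Figure D4:**
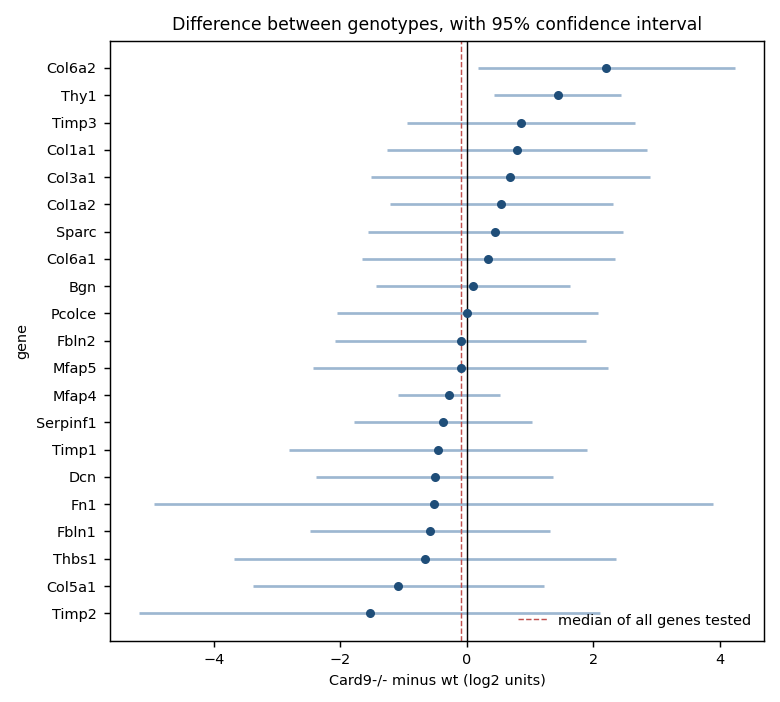
Difference in level between the genotypes (Card9-/- minus wt, log2 units) for the 21 matrix genes tested, with 95% confidence intervals as lines and the median of all genes tested as a dashed line. The intervals of Thy1 and Col6a2 (tested through Card9-/- alone) lie above 0 before adjustment for multiple testing, and those of the other 19 include 0.

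Genes that work with the matrix genes were read from 6 further lists. In the list of other collagens 5 of 19 were tested, 1 higher and 4 lower, with a median difference of -0.38. Among 23 of 36 other matrix glycoproteins and proteoglycans tested, 9 were higher and 14 lower, with a median of -0.26. Agrn, which encodes the proteoglycan agrin, was the one with the smallest p, at 2.44, 2.09, 2.13 and 3.01 in wt and 1.62, 0.69, 0.67 and 0.52 in Card9-/-. Its genotypes did not overlap, where 5.22% of all genes did not in either direction. Its difference of -1.54 (SE 0.39) did not pass (limma adjusted p = 0.534). Of the genes that modify and crosslink procollagen, 14 of 20 were tested, 2 higher and 12 lower, with a median of -0.65. P3h1, a prolyl hydroxylase of collagen chains, had the smallest p of these, with a difference of -1.36 (SE 0.45, limma adjusted p = 0.566).

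Among other metalloproteases and their regulators, 15 of 24 were tested, 5 higher and 10 lower, with a median of -0.24. Reck, a membrane-anchored inhibitor of metalloproteases, stood at -4.57, -3.24, -3.81 and -4.05 in wt and at -1.23, -1.20, -2.24 and -2.28 in Card9-/-. All 4 Card9-/- arrays lay above all wt arrays, as they did in 1.53% of all genes. The difference of 2.18 (SE 0.44) did not pass (limma adjusted p = 0.441). Adam17, which sheds cell surface proteins, differed by -0.84 (SE 0.32, limma adjusted p = 0.617), and its genotypes did not overlap either. Of TGF-beta and PDGF signalling genes 15 of 18 were tested, 5 higher and 10 lower, with a median of -0.27, and of collagen and fibronectin receptors 12 of 19, 5 higher and 7 lower, with a median of -0.28. Itgb3, an integrin chain that binds fibronectin, differed by 1.03 (SE 0.36, limma adjusted p = 0.590), again with no overlap between the genotypes. Across the 6 lists 0 genes passed after adjustment, and each median stands beside -0.09 over all genes tested. Agrn, P3h1, Reck, Adam17 and Itgb3 had an unadjusted p under 0.05, as did 7.22% of all genes. They were named because their p was among the smallest of their lists. By list they were 1 of 23 glycoproteins and proteoglycans, 1 of 14 procollagen genes and 1 of 12 receptors. Of 15 metalloproteases and regulators 1 was higher and 1 lower, and the other collagens and the signalling genes had 0.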

How the data were processed

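RNA of 8 samples, 4 per genotype by the labels, was hybridised to Agilent arrays (0.2 µg labelled with Cy3). Scanner files as deposited give the intensity of each spot. Per the file headers, background was subtracted and trends were removed by Agilent's Feature Extraction (10.7.1.1), with surrogates for dim spots. The authors' series matrix holds log2 values whose column medians all lie near 4.48, with no source for how they were scaled. After its row 49670 the remaining 7075 rows carry the values of the next probe identifier, and only 2 of 8 columns match the scanner file of their own replicate number, so it served as an alternative alone. The deposited flags for outliers and for signal well above background were used as given.

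From these, log2 processed signal minus the array's 75th percentile was computed, outlier spots (63 to 213 per array) were set to missing with 3 usable arrays needed per genotype, and spots of a probe were averaged. Probes well above background on 3 of 4 arrays in one genotype or the other were kept (28166), and the probe with the highest mean stood for each of 18603 genes. The test was limma (3.58.1, R 4.3.3) with an intercept and genotype, two-sided, with Benjamini-Hochberg adjustment at 0.05. The fit was tested on simulated data for this comparison over 18603 genes. It called 0 of 50 genes shifted by 1 log2 unit and 34 of 50 shifted by 4.

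Members were matched by the gene name in the files, and 0 of their 72 probes had an accession of another gene. Every member is accounted for, and of each other list up to 3 genes with the smallest p could be named. The matrix genes and all lists were chosen with earlier results of these data known. Coordinates are mm9, per the files, except promoters. Alternatives were normexp correction (offset 50), median and quantile scaling, no filter, the mean of a gene's probes, slide or replicate number as a block, slide 1 alone, the close wt pair averaged, the authors' matrix, and each array left out.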

Additional observations from a re-analysis of the deposited data

How the results depend on the processing

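In all 18 alternatives 0 matrix genes passed the threshold, and their smallest adjusted p by limma was 0.134 (Thy1, with no filter on dim probes). With no filter, 8607 of 37008 genes were higher at an unadjusted p under 0.05, beside 490 of 18603 in the main analysis. Undetected probes, whose assigned level is higher in Card9-/-, enter that adjustment. The 0.134 therefore does not compare with the adjusted p of the main analysis. Over all genes, 5 passed in the main analysis, 0 with slide as a block and 0 within slide 1, where Card9-/- has 1 array, assumed to vary like the wt arrays (at an unadjusted p under 0.05, 1268 higher and 392 lower with the block, and 1328 and 309 within the slide). The deviations of same-numbered arrays from their group means had correlations of -0.13, 0.25, -0.12 and -0.28. So few values cannot settle whether the numbers pair samples. With the replicate number as a block 3 genes passed. The count of matrix genes lower in Card9-/- was 11, and from 5 (without wt replicate 3) to 15 (without the library labelled wt replicate 1) with 1 array left out. Over all 18603 genes, 10476 were lower in the main analysis. That number was 10299 without wt replicate 3 and 10577 without the library labelled wt replicate 1. The median of the matrix genes was 0.68 without wt replicate 3, 0.48 without wt replicate 4 and -0.48 without the library labelled wt replicate 1. The median of all genes was -0.26 with median scaling, where that of the matrix genes was -0.27.

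Of the 21 genes 6 never changed sign (Col5a1, Col6a2, Dcn, Fbln1, Thy1 and Timp3), and 15 did in at least 1 alternative. The causes of the changes were not tested. The filter had favoured the sign of Col5a1, Col6a2 and Fbln1, each tested only through the genotype in which it was higher. A constant sign of these genes therefore does not count as support for it. Some of the 6 came near 0: Col5a1 at -0.092 with normexp correction and -0.19 without wt replicate 4, Fbln1 at -0.0076 with normexp and -0.038 without wt replicate 3, Dcn at -0.045 without wt replicate 3, and Timp3 at 0.10 without Card9-/- replicate 4. With slide as a block, and equally within slide 1, the differences became -0.45 for Col1a1, -0.14 for Col1a2, -0.00016 for Col3a1, -0.65 for Col6a1, -0.50 for Pcolce, 0.64 for Fn1 and 0.12 for Fbln2. With normexp correction they became 0.29 for Fbln2, 0.067 for Mfap4, 0.34 for Mfap5, 0.040 for Serpinf1 and -0.018 for Pcolce. Averaging the close wt pair gave -0.16 for Col6a1, -0.099 for Sparc and -0.55 for Pcolce. Median scaling gave -0.078 for Bgn and -0.17 for Pcolce. Pcolce was also at -0.034 with quantile normalization, -0.11 with the mean of its probes and -0.033 in the authors' matrix (which gave no value for Mfap4), and Serpinf1 at 0.25 with the mean of its probes. With 1 array left out the ranges were 0.18 to 1.56 for Col1a1, 0.12 to 1.22 for Col1a2, -0.079 to 1.43 for Col3a1, -0.21 to 0.99 for Col6a1, -1.84 to 1.03 for Fn1, -0.22 to 1.05 for Sparc, -0.33 to 0.65 for Bgn, -0.48 to 0.68 for Fbln2, -0.76 to 0.73 for Mfap5, -0.68 to 0.64 for Pcolce, -1.07 to 0.68 for Timp1, -2.70 to 0.15 for Timp2, -1.59 to 0.43 for Thbs1 and -0.70 to 0.16 for Serpinf1. Genes near background and differences under the spread of 4 arrays are beyond what these arrays can show.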
